A study of Mus musculus with 3 samples.

Results

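The long H3K36me3 peaks that were higher in splenic than in large intestinal (LI) Treg cells were the autosomal peaks of at least 1000 and under 10000 bp (long peaks) whose spleen value was at least 1.8 times the LI value, after each library was scaled to its total over all peaks. There were 461 such spleen-high peaks among 27287 autosomal peaks of that length and 120910 peaks in all. They were selected on this ratio, so the ratio is given as a description and was not tested. The mirror set of 768 LI-high peaks, with an LI value at least 1.8 times the spleen value, is given beside them where it shows how the spleen-high peaks differed.

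H3K36me3 was profiled by chromatin immunoprecipitation sequencing (ChIP-seq) in regulatory T cells (Treg cells) from the spleen and the large intestine of adult C57BL/6 mice at steady state, sorted as CD3+CD4+ cells positive for Foxp3-YFP. Both groups carried the Foxp3 Cre-YFP reporter, in which Foxp3, the lineage gene of Treg cells, drives the Cre recombinase and a yellow fluorescent protein. Cells of several female and male mice were pooled into 1 library per tissue, so all differences compare 1 library with 1 library, without replicates, and no p-value was computed. An input library of splenic Treg chromatin is not analysed here.

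H3K36me3 is written by Setd2, a methyltransferase that travels with elongating RNA polymerase II, and it accumulates over the bodies of transcribed genes, more towards their 3' ends. Splenic Treg cells include many resting cells that recirculate through lymphoid organs with the help of Ccr7, whereas Treg cells of the intestine are mostly of effector type.

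Spleen-high and LI-high peaks differed in base composition, and the central 300 bases of 4 peaks are shown for that reason. For Nrp1 and Ift80, the hosts with the most spleen-high peaks, it is the intronic peak with the highest spleen/LI ratio, and for comparison the 2 intronic LI-high peaks of different hosts with the lowest ratio are shown, in Ky and Ramp3. The windows are chr8:128374971-128375270 in Nrp1, chr3:68977303-68977602 in Ift80, chr9:102511699-102511998 in Ky and chr11:6661106-6661405 in Ramp3. They are mm10 (GRCm38) sequence in the direction of the gene, which is the plus strand except for Ift80. Capitals mark CpG dinucleotides.
Nrp1: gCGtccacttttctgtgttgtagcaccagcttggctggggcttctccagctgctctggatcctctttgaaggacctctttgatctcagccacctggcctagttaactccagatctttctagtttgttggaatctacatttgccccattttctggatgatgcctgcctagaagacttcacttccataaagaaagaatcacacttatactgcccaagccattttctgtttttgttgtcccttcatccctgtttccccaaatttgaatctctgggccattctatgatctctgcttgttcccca
Ift80: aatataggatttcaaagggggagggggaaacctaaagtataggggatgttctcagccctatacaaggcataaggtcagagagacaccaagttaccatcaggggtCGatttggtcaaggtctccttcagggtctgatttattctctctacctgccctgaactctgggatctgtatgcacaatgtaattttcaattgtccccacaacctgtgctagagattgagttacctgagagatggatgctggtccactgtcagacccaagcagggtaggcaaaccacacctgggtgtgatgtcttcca
Ky (LI-high): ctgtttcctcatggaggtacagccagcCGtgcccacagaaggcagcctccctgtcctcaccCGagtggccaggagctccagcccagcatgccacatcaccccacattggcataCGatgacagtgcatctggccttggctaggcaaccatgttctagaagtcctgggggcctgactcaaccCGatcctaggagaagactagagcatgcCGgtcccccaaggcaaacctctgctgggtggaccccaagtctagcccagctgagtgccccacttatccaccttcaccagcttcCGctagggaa
Ramp3 (LI-high): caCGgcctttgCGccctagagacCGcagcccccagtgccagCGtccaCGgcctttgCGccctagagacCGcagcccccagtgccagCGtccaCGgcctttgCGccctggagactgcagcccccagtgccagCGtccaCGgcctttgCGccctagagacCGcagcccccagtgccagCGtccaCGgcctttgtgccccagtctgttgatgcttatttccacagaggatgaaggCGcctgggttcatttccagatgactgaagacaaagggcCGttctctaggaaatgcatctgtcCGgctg
The windows of the spleen-high peaks held 1 CpG in Nrp1 and 1 in Ift80, and those of the LI-high peaks 6 in Ky and 19 in Ramp3. A short unit recurs along much of the Ramp3 window and holds most of its CpGs. GC content was 47.0% in the Nrp1 peak and 47.9% in the Ift80 peak, 53.6% in Ky and 56.3% in Ramp3. The first pair thus lay above the median of all long peaks (46.4%) and does not show the lower GC content of the spleen-high set. The peaks themselves had 12.9 RPKM in spleen and 3.69 in LI in Nrp1, 18.1 and 5.35 in Ift80, 1.55 and 15.8 in Ky, and 2.71 and 20.5 in Ramp3.

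The values are mean coverage over the peak in reads per kilobase per 1e+06 mapped reads (RPKM). Over the 461 spleen-high peaks the median was 14.6 RPKM in spleen, between 8.43 and 45.2, and 7.07 RPKM in LI, with quartiles of 6.02 and 8.37. The median spleen value was close to the 13.9 RPKM of all long autosomal peaks, and the median LI value was below their 14.4 RPKM. The spleen/LI ratio had a median of 2.06, with quartiles of 1.90 and 2.38. It was 2 or more in 264 peaks, 3 or more in 45 peaks and under 2 in 197 peaks (42.7%). A ratio of 1.8 or more was reached by 1.69% of the long autosomal peaks, and a ratio of this size towards LI by 2.81%.

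**Figure D1:**
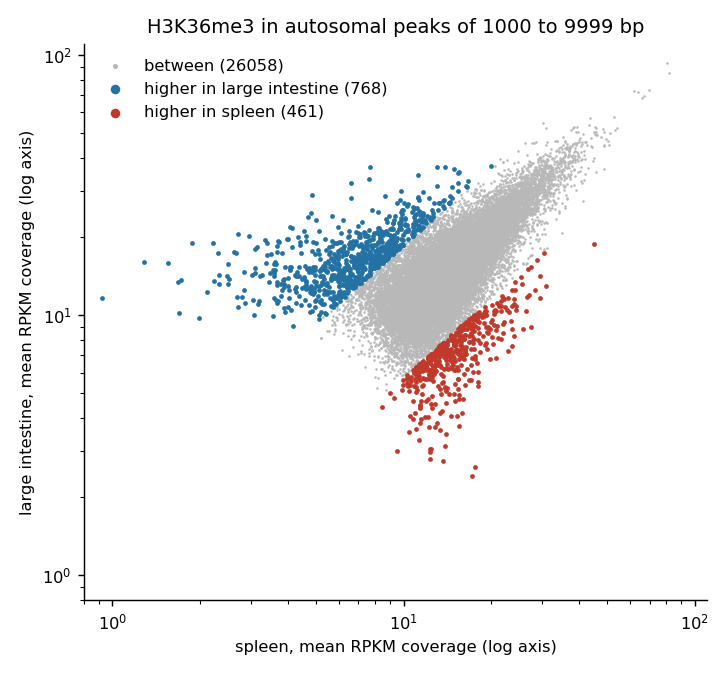
H3K36me3 in the 27287 long autosomal peaks, 1 point per peak, with mean RPKM coverage in splenic Treg cells on the x axis and in LI Treg cells on the y axis, both logarithmic. The 461 spleen-high peaks (red) lie below the diagonal and the 768 LI-high peaks (blue) above it.

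The spleen-high peaks were short for long peaks. Their median length was 1359 bp (95% interval over peaks 1304 to 1408) against 1834 bp in all long peaks. They made up 2.84% of the long peaks under 1500 bp and 0.511% of those of 5000 bp or more, and the LI-high peaks fell in the same way, from 4.01% to 1.06%. Counting precision was limited in such peaks. With each read taken to cover 200 bp, the median peak held about 53.3 reads in spleen and 33.2 in LI. The approximate 95% counting interval of the ratio lay above 1 in all 461 peaks and wholly above 1.8 in 77 of them. These intervals cover counting error only and treat reads as independent molecules. They are centred on the ratio by which the peaks were chosen and do not allow for that choice. A lower end above 1 is therefore largely set by the rule.

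Peaks on either side of the threshold were alike in value. Just inside it were intronic peaks of Parn, a poly(A)-specific ribonuclease, at 14.6 RPKM in spleen and 8.37 in LI, of Cd96, a receptor of T and NK cells, at 16.4 and 9.37, and of Capza1, a subunit of the actin capping protein, at 11.01 and 6.31. Just outside were intronic peaks of Atm, a DNA damage kinase, at 16.8 and 9.62 RPKM, of Ms4a4b, a membrane protein of T cells, at 12.5 and 7.19, and of Nmd3, a ribosome export factor, at 14.2 and 8.18. The ratios were 1.801 to 1.802 inside and 1.799 outside.

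The longest spleen-high peak was 9191 bp, in an intron of Klf3, a Kruppel-like repressor, and had 30.4 RPKM in spleen and 17.3 in LI (ratio 1.82, counting interval 1.63 to 2.03). Gramd3, a gene for a GRAM domain protein, held peaks of 7803 bp (26.3 and 10.4 RPKM) and 7373 bp (26.5 and 11.8 RPKM). Tcf7 held a peak of 7316 bp that had the highest spleen value of all spleen-high peaks, 45.2 RPKM, with 18.8 in LI. Dtx1, which codes for a ubiquitin ligase of Notch signalling, held one of 6525 bp at 18.4 and 9.99 RPKM.

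The host of a peak was the protein-coding gene of GENCODE M21 whose body held its midpoint. The spleen-high peaks had 239 host genes, 3.48% of the 6872 coding genes with a long autosomal peak, and LI-high peaks were hosted by 5.05% of them. The hosts were uneven. There were 177 genes with 1 spleen-high peak, 33 with 2 and 29 with 3 or more, and these 29 genes held 201 of them (43.6%). The 15 genes with the most held 147 (31.9%). Of the 239 hosts, 0 also held an LI-high long peak.

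**Figure D2:**
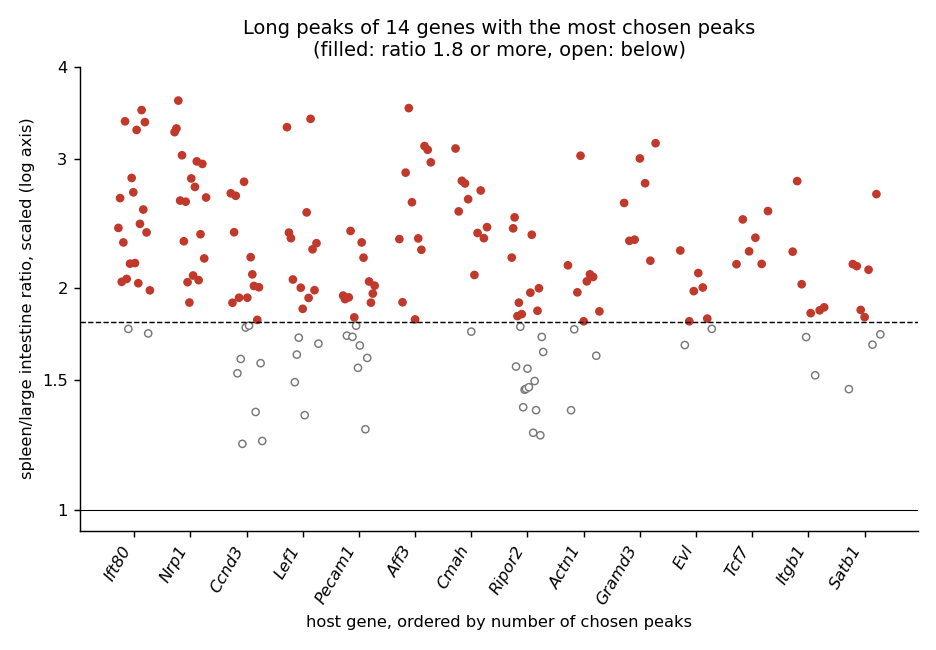
Spleen/LI ratio (y axis, logarithmic) of each long peak in 14 of the host genes with the most spleen-high peaks (x axis), in genomic order within a gene; filled points reach 1.8 and open points do not. All 18 long peaks of Nrp1 lie between 1.91 and 3.60, and Ripor2 has 10 filled points among 23.

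Genes of lymphocyte recirculation were among the hosts. S1pr1, the sphingosine 1-phosphate receptor for egress into lymph, had 1 at 23.6 RPKM in spleen and 7.58 in LI (ratio 3.21), and a second, with its midpoint 1222 bp past the gene, had 18.2 and 8.52 RPKM. Ccr7, the chemokine receptor for entry into lymph nodes, had a peak of 6112 bp at 29.3 and 11.6 RPKM (ratio 2.61). Downstream of Klf2, a transcription factor known to activate S1pr1, a peak of 4056 bp with its midpoint 261 bp past the gene had 30.9 and 12.9 RPKM (ratio 2.47). The only peak with its midpoint inside Klf2, of 0.751 kb, had 28.9 and 23.2 RPKM (ratio 1.29). Itga6, an integrin subunit, held 2 spleen-high peaks among 13 long peaks.

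The related HMG-box factors Tcf7 and Lef1, which keep T cells in a resting and long-lived state, differed in how much of the gene was spleen-high. In Tcf7 all 6 long peaks were, with 19.6 to 45.2 RPKM in spleen, 8.19 to 18.8 RPKM in LI, and ratios between 2.16 and 2.55. Of these, 3 also lay within the lncRNA gene Gm26551, and ChIP-seq does not tell overlapping genes apart. In Lef1 they were 12 of 17, with 11.02 to 20.9 RPKM in spleen, 3.71 to 11.1 RPKM in LI, and ratios from 1.88 to 3.40. The other long peaks of Lef1 had ratios of 1.34 to 1.71. The chosen peaks of Lef1 lay in an early group, between 8.17 and 12.4 kb from its start, and in a late one between 76.4 and 108.3 kb. A further spleen-high peak, with its midpoint 540 bp past the gene, had 19.9 and 9.40 RPKM.

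Other transcription factors showed smaller or more local stretches. Bach2, a repressor that holds back effector differentiation, had 4 long peaks and all were spleen-high. The first of them, 20.5 kb from the start, had 12.3 RPKM in spleen and 2.98 in LI (ratio 4.27, counting interval 2.18 to 8.34). The other 3 lay 324251 to 341246 bp from the start of this 347 kb gene, near its end, at 21.9, 19.2 and 16.8 RPKM in spleen and 9.20, 8.99 and 8.29 in LI. Satb1, an organizer of chromatin in T cells, had 6 of 9, with 11.4 to 24.0 RPKM in spleen and 4.39 to 11.5 in LI. Klf3 had 2 of 5. Foxp1, a quiescence factor of naive T cells, had 1 of 20, at 11.1 and 5.28 RPKM.

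Nrp1, which codes for neuropilin-1, a surface receptor typical of thymus-derived Treg cells, was spleen-high along its whole length. All 18 of its long peaks were chosen, from 6.74 kb to 144 kb past its start, with 9.49 to 24.3 RPKM in spleen and 3.01 to 10.8 RPKM in LI. The highest ratio was 3.60 (counting interval 2.08 to 6.23) in chr8:128374442-128375799, where the values were 12.9 and 3.69 RPKM. The lowest was 1.91. All 61 of its peaks under 1000 bp, which the rule did not use, also had a ratio above 1.

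Ift80, a gene of intraflagellar transport in cilia, equalled Nrp1 in number. Of its 20 long peaks 18 were spleen-high, with 10.5 to 22.2 RPKM in spleen and 4.09 to 9.37 RPKM in LI. The remaining pair reached 1.74 and 1.76. Its neighbour Smc4, a subunit of condensin that starts close to the start of Ift80 on the other strand, held 3 of 5, at 12.1 to 17.1 RPKM in spleen and 4.05 to 9.39 in LI. These genes lie head to head, so that a peak near the border between them can carry signal of either.

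**Figure D3:**
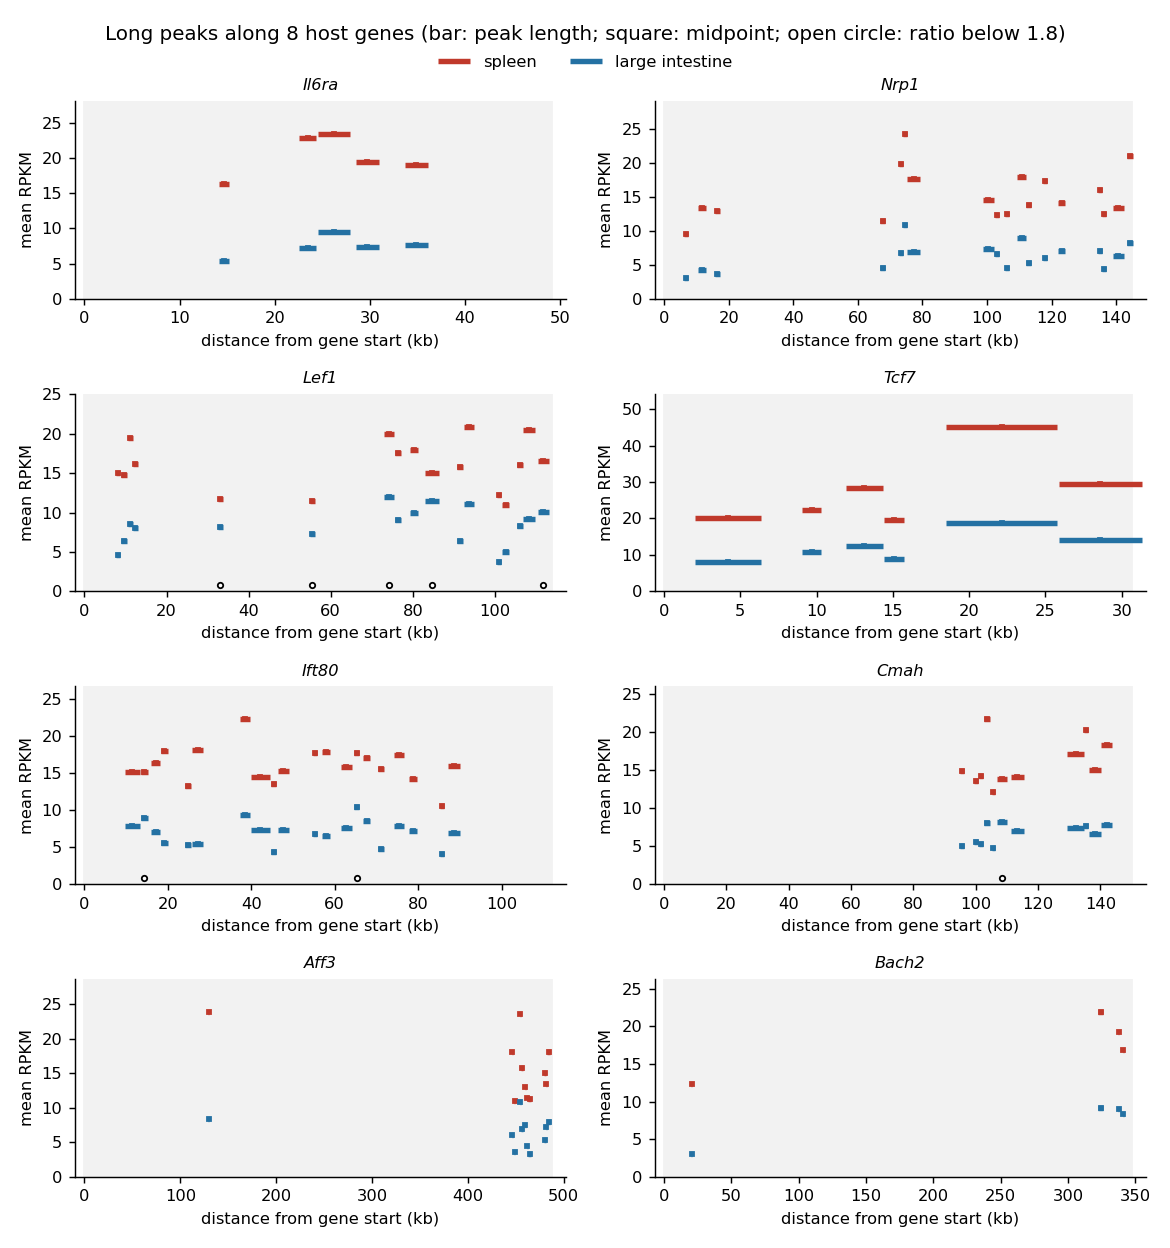
Mean RPKM coverage (y axis) of every long peak along 8 host genes (x axis, distance from the gene start in kb; the shaded area is the gene) in spleen (red) and LI (blue), with bars as long as the peaks, squares at their midpoints and open circles under peaks below 1.8. Il6ra, Nrp1, Tcf7, Aff3 and Bach2 have no open circle, and in Cmah all 11 long peaks lie in the distal part of the gene.

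The leading hosts included genes of the cell surface and the cytoskeleton. Pecam1 (CD31, an adhesion molecule) had 11 of 18 long peaks, at 12.8 to 24.3 RPKM in spleen and 6.26 to 11.6 in LI. Itgb1, the integrin beta 1 chain, had 6 of 8, at 11.4 to 15.3 and 5.38 to 7.76 RPKM. Cmah, the hydroxylase that makes the sialic acid Neu5Gc, had 10 of 11, at 12.1 to 21.6 and 4.73 to 8.05 RPKM. On the side of the cytoskeleton, Actn1 (alpha-actinin) had 8 of 11, Evl (an actin regulator of the Ena/VASP family) 6 of 8, and Ripor2 (an inhibitor of RhoA) 10 of 23. The spleen-high peaks of Ripor2 were weaker in ratio, 1.83 to 2.50, and its other long peaks went down to 1.26.

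Genes of signalling and of the cell cycle were represented too. Il6ra, the interleukin-6 receptor chain, had 5 of 5 long peaks, with 16.3 to 23.4 RPKM in spleen, 5.35 to 9.46 in LI and ratios from 2.55 to 3.26. Ccnd3, which codes for cyclin D3, had 12 of 20, at 10.8 to 22.0 and 3.99 to 10.9 RPKM. Gpr83, a G protein-coupled receptor that Treg cells express, had its only long peak at 19.8 and 8.81 RPKM (ratio 2.32). Prkcq, the protein kinase C theta of T cell receptor signalling, had 3 of 18, all with ratios from 1.82 to 1.91. Bcl2, the survival factor, had its only long peak at 16.2 and 5.92 RPKM (ratio 2.82), and Igfbp4, an insulin-like growth factor binding protein, at 15.5 and 4.91 (ratio 3.26).

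A few hosts with high ratios are not known for a role in T cells. Nsg2, which codes for a vesicle protein of neurons, had 4 long peaks, all spleen-high, at 15.3, 13.9, 15.5 and 14.5 RPKM in spleen and 4.10, 3.13, 3.75 and 4.07 RPKM in LI. Its ratios were 3.69 to 4.58. Fry, a gene for a microtubule-binding protein, had 2 of 2, the stronger by ratio at 12.5 and 3.04 RPKM (ratio 4.23). Aff3, of the AF4 family of elongation cofactors, had 11 of 11, at 11.002 to 23.9 RPKM in spleen and 3.31 to 10.8 in LI. Of these, 10 lay between 91.6% and 99.3% of the way along the gene, and 1 lay 130 kb from the start of this 488 kb gene at 23.9 and 8.32 RPKM. Gramd3 had 7 of 7, with medians of 23.7 RPKM in spleen and 9.53 in LI, and in spleen this median was the highest of the 15 leading hosts after Tcf7.

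The gene lists are set beside the shares over all genes with a long peak, 3.48% and 5.05%. Of 25 genes of resting T cells, 21 had a long autosomal peak and 17 of them (80.95%) hosted a spleen-high peak, with 61 of their 148 long peaks chosen. Among the 21, 0 hosted an LI-high peak, and over all their peaks 24 of the 25 genes had a ratio above 1, Ccr9 being the exception at 0.505. By this measure 17 of 21 genes of T cell receptor signalling were also above 1, and 10 of 21 Treg core genes. The median ratio was 1.83 for resting genes, 1.08 for T cell receptor signalling genes and 0.909 for Treg core genes. The share over all coding genes is not given for this measure. Ets1, Foxo1, Il7r and Tgfbr2 hosted long peaks but 0 spleen-high ones, with ratios over all their peaks of 1.04 to 1.13. Dgka, a diacylglycerol kinase, held 2 of 7, Ms4a4b 2 of 4 and Txk, a Tec family kinase, 1 of 7.

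Treg core genes did not follow that pattern as a list. Of 18 with a long autosomal peak, 2 (11.1%) hosted spleen-high peaks, Nrp1 and Gpr83, and 3 hosted LI-high peaks, Itgae, Socs2 and Tnfrsf9. Ikzf2, the gene for Helios, had 14 long peaks and 0 chosen, with a ratio over all peaks of 1.42. Il2ra, the interleukin-2 receptor alpha chain, stood at 1.08 and Ctla4 at 0.866. Of 16 effector and tissue Treg genes with a long peak, 0 hosted a spleen-high peak and 13 (81.3%) an LI-high one. Of 20 genes of T cell receptor signalling, 1 hosted spleen-high peaks and 1 an LI-high peak, and of 9 AF4 and elongation genes, only Aff3 hosted spleen-high peaks.

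Signature genes were compared in the same way. The splenic signature, which the study took from published expression data of other samples, had 294 genes with a long peak, of which 62 (21.1%) hosted a spleen-high peak and 0 an LI-high one. Of the 10 genes of this signature with the most spleen-high peaks, Ift80 and Nrp1 came first, followed by Lef1, Pecam1, Aff3, Cmah, Ripor2, Actn1, Evl and Tcf7. The colonic signature had 234 such genes, of which 0 hosted a spleen-high peak and 104 (44.4%) an LI-high one. Ccnd3, Gramd3 and Satb1 were leading hosts outside the splenic signature.

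Most markers of other cells had no peak. Of 22 Treg core genes, 21 had a peak, and their peaks covered 360.5 kb. Foxp3 itself had 8 peaks over 11.73 kb, with 22.5 RPKM in spleen and 26.9 in LI. It lies on chromosome X, and the rule took autosomal peaks only, so its peaks could not be chosen. Of 18 B cell markers 6 had a peak, over 4.30 kb in all, and Ms4a1 had 0. Of 15 myeloid markers 3 had one, over 5.02 kb, and of 16 epithelial markers 3, over 2.63 kb. The levels of these B cell genes ranged from 4.05 to 12.4 RPKM in spleen and from 0.248 to 13.7 in LI, with 3 of 6 higher in spleen, among them a single short peak of Cd22, a B cell lectin, at 12.4 and 0.248 RPKM. Among myeloid markers, Cd68 had 15.05 RPKM in spleen and 15.01 in LI, Csf1r 14.7 and 16.3, and Tlr2 6.29 and 14.45. Cd68 and Csf1r thus lay above the medians of all long peaks, 13.9 and 14.4 RPKM. The 3 epithelial markers with a peak were all higher in LI, with ratios of 0.379 to 0.581. A long autosomal peak was present in only 1 B cell marker, 2 myeloid markers and 0 epithelial markers. Of these, 0 hosted a spleen-high peak, against 3.48% of all coding genes with a long peak. With so few markers this count says little, and the part of other cells in the result was not tested.

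Most spleen-high peaks lay in gene bodies, as did long peaks in general. Of the 461, 444 (96.3%) had their midpoint in a coding gene, against 96.8% of all long autosomal peaks. Introns held 85.0% of them (95% Wilson interval over peaks 81.5% to 88.0%), against 75.3% of all long peaks and 75.1% of the LI-high ones. Coding exons held 5.42% against 11.1%, and the surroundings of a transcript start, within 1 kb of it, 1.52% against 3.76%. UTRs held 4.34%, among them the last peaks of Nrp1 and Gramd3.

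In position along the gene the spleen-high peaks, as chosen by the rule, differed more from the LI-high peaks than from long peaks in general. Their median position was 64.3% of the way along the host gene (interval 58.9% to 68.3%), against 66.0% in all long peaks and 71.3% in the LI-high peaks (69.3% to 73.9%). Against all long peaks the direction turned with the settings, since the median was 67.1% at a ratio of 2.0, 67.1% with at least 20 RPKM summed over both libraries and 68.4% after GC correction. For spleen-high peaks of 2000 bp or more it was 73.5%, past the 71.3% of the LI-high peaks of all lengths. The other sets are not given at that length. With the gene divided into 5 parts of equal length, the first part held 10.8% of the spleen-high peaks, 6.78% of all long peaks and 4.41% of the LI-high peaks. Within the host genes, 48 of 121 long peaks in the first part (39.7%, interval 31.4% to 48.6%) and 138 of 569 in the last (24.25%) were spleen-high. Among the hosts named in this report, Prkcq, Nrp1, Ccnd3 and Bach2 had the earliest spleen-high peaks, at 3.81%, 4.65%, 5.49% and 5.90% of the way along the gene. Some hosts not named had peaks as early.

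Counted by peak, the host genes were long. The median spleen-high peak lay in a gene of 92.9 kb, against 47.05 kb for all long peaks and 67.9 kb for the LI-high peaks. With each host gene counted once, the median length was 58.7 kb over the 239 hosts. No such median is given for all coding genes with a long peak, and 47.05 kb is counted by peak. It was 97.1 kb in the 29 hosts with 3 or more spleen-high peaks and 53.9 kb in the 177 hosts with 1. In genes under 20 kb, 0.516% of long peaks were spleen-high, in genes of 100 to 200 kb 3.25% and in genes over 200 kb 3.12%. The LI-high share was 2.56% in the shortest genes and 6.99% in the longest. In distance, the median spleen-high peak lay 42.6 kb from the gene start and 23.7 kb from its end.

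The spleen-high peaks as chosen were lower in G and C than long peaks in general. Their median GC content was 44.6% (interval 43.9% to 45.2%), against 46.4% in all long peaks and 49.8% in the LI-high peaks. When all long peaks were split by GC content into 10 equal groups, the spleen-high share was 3.85% in the lowest group and 0.916% in the highest, and the LI-high share went from 0.806% to 7.44%. CpG density followed, with 10.8 CpG per kb in spleen-high peaks, 12.04 in all long peaks and 14.9 in LI-high peaks. Repeats covered a median of 16.03%, 16.7% and 10.95% of the bases in these 3 sets.

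**Figure D4:**
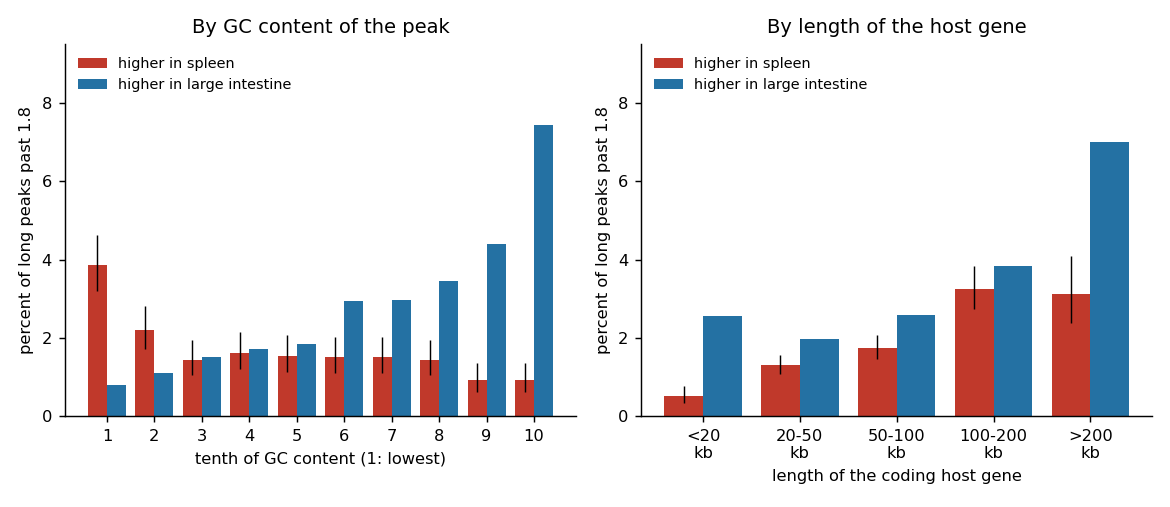
Percent of long peaks that were spleen-high (red, with 95% Wilson intervals over peaks) or LI-high (blue) in 10 equal groups by GC content (left) and by length of the coding host gene (right). The spleen-high share falls from 3.85% to 0.916% with GC content while the LI-high share rises from 0.806% to 7.44%, and both shares are larger in genes over 100 kb than in genes of 20 to 50 kb.

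The same lean was seen between peaks of 1 gene. In 186 host genes with both spleen-high and other long peaks, the spleen-high peaks had the lower GC content in 132 (71.0%), with a median difference of -1.71 percentage points (interval -2.01 to -1.45). Over the whole table the median ratio of long peaks itself fell with GC content, from 1.195 in the lowest group to 0.864 in the highest. When each ratio was divided by the median of its GC group, 411 long peaks reached 1.8, of which 342 were among the 461 and 69 were not, and 119 of the 461 no longer did. The 411 had a median GC content of 47.2%, above the 46.4% of all long peaks, so the lower GC content was not seen in peaks chosen after this correction. The part of GC content in the differences between the libraries was not tested.

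Hosts with many spleen-high peaks and hosts with 1 differed in this respect. In the 29 genes with 3 or more, 92.0% of the spleen-high peaks stayed at 1.8 after the division, in the 33 genes with 2 it was 65.2%, and in the 177 genes with 1 it was 55.4%. In these classes the peaks had a median of 46.2%, 44.2% and 42.8% G and C. Their median ratios before the division were 2.25, 1.99 and 1.94, so peaks of the first class also began further above 1.8. Splenic signature genes made up 75.9%, 39.4% and 15.3% of the hosts. Over all peaks of a gene, the chosen ones included, the ratio had a median of 1.98 in the first class, 1.43 in the second and 1.27 in the third. In 227 of all 239 hosts it was above 1. The rule sets these ratios in part, and no share over all coding genes is given beside them.

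Peaks under 1000 bp, which were not used to choose the long peaks, gave a further reading of the same genes in the same libraries. In the hosts with 3 or more spleen-high peaks, 1017 of 1088 short peaks (93.5%) had a ratio above 1. The share was 82.9% in hosts with 2 and 71.0% in hosts with 1, and 51.5% over all autosomal short peaks. In Aff3 76 of 77 short peaks had a ratio above 1 with a median of 3.39, and in Ift80 52 of 53 with a median of 2.85. Glud1, the mitochondrial glutamate dehydrogenase, was a host of 2 whose short peaks did not lean to spleen, with 1 of 5 above 1; it was named after its values were seen.

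**Figure D5:**
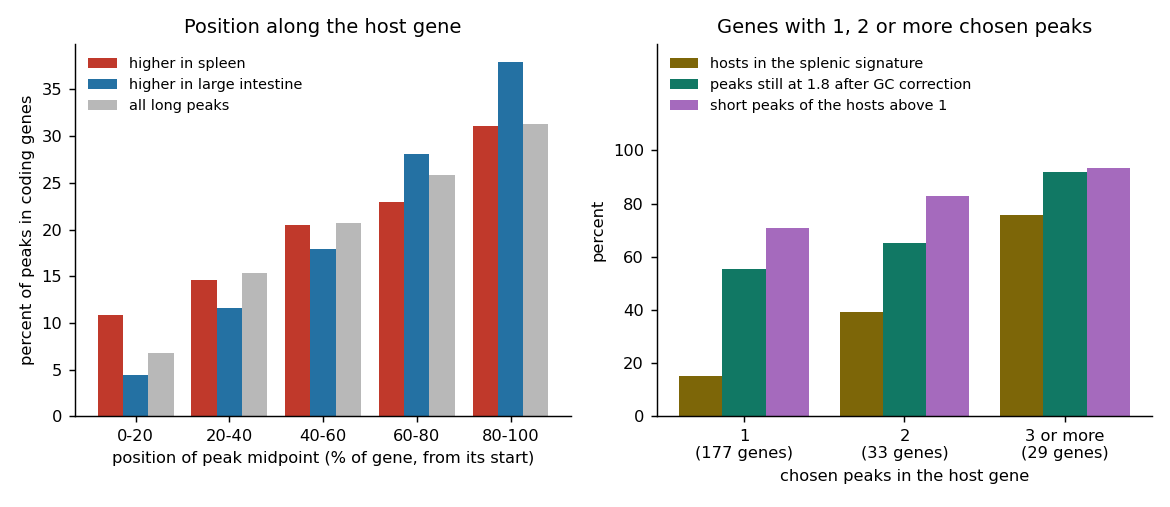
Left, the percent of spleen-high, LI-high and all long peaks in coding genes in 5 equal parts of the gene (x axis, position of the midpoint); right, for hosts with 1, 2 or 3 and more spleen-high peaks, the percent of hosts in the splenic signature, of spleen-high peaks still at 1.8 after GC correction and of short peaks with a ratio above 1. The first part holds 10.8% of spleen-high and 4.41% of LI-high peaks, and all 3 measures on the right are highest in the 29 genes with 3 or more.

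Setd2, the gene of the enzyme that writes the mark, was among the hosts with 1 spleen-high peak, and it was likewise named after its values were seen. The peak lay in an intron at 13.2 RPKM in spleen and 6.88 in LI (ratio 1.98, counting interval 1.30 to 3.01). It was 1 of 12 long peaks of the gene, and over all 64 of its peaks the ratio was 1.07.

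Part of the spleen-high peaks followed each other along the chromosome when long peaks alone were considered. In runs of 3 or more, with no other long peak between them and gaps of at most 100 kb, there were 160 of them (34.7%, interval 30.5% to 39.2%), in 29 runs. When short peaks could interrupt a run, the share was 8.68%. A further 52 stood in pairs and 249 (54.0%) alone. The longest run was the 18 peaks of Nrp1 over 139 kb, followed by 11 in Ift80 over 48.0 kb, 10 in Aff3 over 39.99 kb, 8 in the lncRNA gene Gm2682 over 53.2 kb and 7 in Gramd3 over 31.3 kb. Of the 29 runs, only the one across Ift80 and Smc4 held peaks of more than 1 coding host. LI-high peaks stood in runs more often, with 350 of 768 (45.6%) in 63 runs, and the longest of those had 36 peaks.

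The neighbours of a spleen-high peak leaned the same way. Neighbouring long peaks within 100 kb were counted from each spleen-high peak that they adjoin, so the same peak can count more than once. Of 782 neighbours counted in this way, 314 (40.15%) were spleen-high and 5 LI-high. The 468 neighbours in this count that were not spleen-high had a median ratio of 1.24, and 79.1% of them were above 1, against 48.9% of all long peaks. Neighbours share the gene and its transcription, so they are not independent readings.

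In places, different host genes with spleen-high peaks lay within 300 kb of each other. There were 27 such neighbourhoods, with 56 hosts and 135 spleen-high peaks. How often other coding genes with a long peak lie this close is not given, so the count alone does not show grouping. Nrp1 and Itgb1 together held 24 peaks over 369 kb of chromosome 8, with a median ratio of 2.50. Cmah, Ripor2 and Mrs2 held 21 over 581 kb of chromosome 13 (median 2.37), and Ift80 and Smc4 21 over 112 kb of chromosome 3 (median 2.42). Smaller ones paired Il6ra with Ubap2l, Bach2 with Mdn1, and Igfbp4 with Ccr7. Mrs2, Ubap2l and Mdn1 held 1 spleen-high peak each, among 6, 12 and 25 long peaks. Their ratios over all peaks were 0.975, 1.17 and 1.22. Chromosome 3 had the largest share of its long peaks chosen, 5.15% (55 peaks), and chromosome 7 the smallest, 0.461% (8 peaks).

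Outside coding genes there were 17 spleen-high peaks. Gm2682, a lncRNA gene on chromosome 15, held 8 of them, with 11.5 to 17.1 RPKM in spleen and 3.05 to 6.42 in LI, and ratios from 2.40 to 4.17. Its nearest coding gene was 111 kb or more away from each. The lncRNA class therefore made up 1.95% of the spleen-high peaks, against 0.429% of all long peaks. Another 7 had their midpoint within 10 kb downstream of a coding gene, past the ends of Klf2, S1pr1, Lef1, Rgs10, Tnfsf8, Adamtsl4 and Tmprss2. The one past Tnfsf8 (CD30 ligand) had 10.4 and 5.39 RPKM, and the one past Rgs10, a regulator of G protein signalling, 23.6 and 12.4. The remaining pair lay in the lncRNA gene E430024I08Rik and, by its midpoint, 976 bp upstream of Dennd2d, the gene of a Rab exchange factor.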

How the data were processed

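H3K36me3 ChIP-seq of splenic and LI Treg cells was analysed, with 1 library each. Per the study's methods and the submitters' processing notes, single-end reads of 75 nt were aligned to mm10 with Bowtie2 after FastQC, and peaks were called with MACS2 against the input and merged with bedtools; versions are not given in the sources used here. The deposited values are mean RPKM coverage per merged peak, made by the authors with bamCoverage and multiBigwigSummary. The submitters' name for the table is raw counts, yet it holds fractional values, which were not used as counts. Multiplied by peak length, 100% of the 300 lowest values of each library were whole multiples of a common step (within 0.05). The steps, 1.69 RPKM in spleen and 1.31 in LI, correspond with bins of 20 bp to about 29627497 and 38096752 mapped reads. Counts per peak were not used here, and the counting intervals take 200 bp per read (75 bp gave 129 in place of 77 intervals wholly above 1.8). The LI total over all peaks was 1.03 times the spleen total.

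Hosts, exons and transcript starts came from GENCODE M21 and bases from GRCm38.p6; 0 peaks ran past a chromosome end. A position runs from 0 at the gene start to 100 at its end. Where genes overlap, the host is the gene with the larger overlap. Signature symbols came from the study's supplement: 457 of 505 colonic and 438 of 494 splenic symbols matched a coding gene directly, and a further 9 and 17 matched through an older symbol. Named genes were the 15 hosts with the most spleen-high peaks, the 10 peaks with the highest ratio, the 5 longest peaks and runs, listed genes that host one, the 3 peaks on each side of the threshold and the leading signature hosts; other genes named (listed genes without a spleen-high peak, Glud1, Setd2 and those of the closing section) were chosen after their values were seen. Some genes that the rule names are not reported here. Members and lists were chosen with earlier results of these data known. With 1 library per tissue there was no test; intervals over peaks (Wilson for shares, order statistics for medians) describe peaks, which are not replicates. Python 3.11.15, pandas 2.3.3, numpy 2.4.6, scipy 1.17.1, pysam 0.24.0 and matplotlib 3.10.9 were used, and the scripts were tested on simulated data. Alternatives changed scaling, pseudocount, threshold, minimum length, a filter on low values, GC correction, gene assignment and the definition of runs.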

Additional observations from a re-analysis of the deposited data

How the results depend on the processing

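Over 78 recomputed values of 8 results, 52 moved little and 26 moved. A count was taken to move little when it stayed within 1.5-fold, and a share or median when it stayed within its interval. The scaling alternatives are among the 52, yet the counts changed within that limit. There were 381 peaks in 186 coding hosts with the values as deposited, and 531 in 284 with length-weighted totals. Scaling by the median of ratios gave 469 in 245, and a pseudocount of 1 RPKM gave 341 in 160. At a ratio of 1.5 there were 1332 peaks in 762 coding hosts, with a median GC content of 43.5%, 23.95% in runs, and 102 splenic and 8 colonic signature genes among the hosts. At a ratio of 2.0 these were 264 peaks in 117 hosts, 45.5% GC and 42.8% in runs. With peaks of 2000 bp or more there were 96 peaks in 43 hosts, 27 of them splenic signature genes, at a median position of 73.5% along the gene, with 45.5% GC and 53.1% in runs. With at least 20 RPKM summed over both libraries there were 287 peaks in 153 hosts, with 45.6% GC. After GC correction the median GC content was 47.2%, above that of all long peaks (46.4%) and not below it, the median position 68.4%, the share in runs 43.3% and colonic signature hosts numbered 1. With genes of all types 98.5% lay in gene bodies. The share in runs was 40.5% with a pseudocount of 1 RPKM and 8.68% when short peaks could interrupt a run. Leaving out a replicate could not be run, since each tissue had 1 library. No paired analysis was possible because there was 1 library per tissue and no test. Counting error limits single peaks: 77 of 461 counting intervals lay wholly above 1.8.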

Other observations

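Of 602 autosomal peaks of 10 kb or more, 0 reached 1.8 towards spleen and 7 towards LI. The highest ratio was 1.58, in a peak of 12150 bp over Atp1b3, the beta 3 subunit of the sodium pump, at 19.3 RPKM in spleen and 12.6 in LI. It was followed by peaks in Ripor2 (32.3 and 21.8 RPKM, ratio 1.53) and Lrig1 (30.8 and 21.1 RPKM, ratio 1.51), both hosts of spleen-high peaks. Of 248 long peaks on chromosome X, 1 reached 1.8 towards spleen and 2 towards LI. It lay in an intron of Sh3kbp1, an adaptor of receptor endocytosis, at 9.01 and 4.60 RPKM (ratio 2.02, counting interval 1.15 to 3.55). Among autosomal peaks under 1000 bp, 17.45% reached 1.8 towards spleen.

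In 12 of the 239 hosts the ratio over all peaks was below 1 although 1 long peak was spleen-high. The lowest was Ppm1h, a protein phosphatase gene, at 0.846, where the spleen-high peak had a ratio of 1.91 and the other long peaks 0.587 to 0.970. In Kif13b, a kinesin gene, the spleen-high peak reached 2.81 among other long peaks of 0.742 to 1.36.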
